A study of Mus musculus with 6 samples.

Results

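Potassium channel genes were examined in whole sciatic nerve of mice without Srebf-1c (KO) and of wild-type littermates, all aged 10 months. A gene was taken as a member when the platform annotation gave its probe set 1 symbol and that symbol started with Kcn, then letters and a number. This gave 89 of the 22180 genes tested, from 96 probe sets, of which 87 code for channel subunits and 2, Kcnq1ot1 and Kcnd3os, are non-coding RNAs that share a channel's name. The sciatic nerve is a large mixed nerve of the leg that holds axons, Schwann cells and a sheath with vessels, while the bodies of its neurons lie outside it in ganglia and spinal cord. Srebf-1c, a product of Srebf1, is a transcription factor known for driving genes of fatty acid synthesis. The 6 samples, 3 labelled Srebf-1c KO and 3 labelled wild type, were each measured on 1 Affymetrix whole-transcript array.

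Potassium channels let potassium ions leave or enter cells and set the resting potential and the shape of the action potential. Voltage-gated channels open on depolarisation, inward rectifiers and tandem-pore (K2P) channels conduct near rest, and other channels open when calcium or sodium rises inside the cell. In myelinated nerve, channels built from the products of Kcna1 and Kcna2 are known to lie in the axon membrane beside the paranodes, under the myelin sheath.

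The targeted gene was lower on every KO array. Log2 intensity of Srebf1 was 8.11, 8.06 and 8.04 on the KO arrays and 9.53, 9.55 and 9.70 on the wild-type arrays, a log2 fold change of -1.52 ± 0.11 (SE, n = 3 each; adjusted p = 0.0497 in limma, which moderates each gene's variance across all genes). For the KO samples 1 label, the tissue source, names wild type. Their titles and genotype entries name KO, and the groups follow the titles. Nothing in the labels states that each sample was a different mouse, so a p-value here covers sample-to-sample spread that may in part be technical. The number of arrays limits the precision. Median intensity per array ran from 118.9 to 122.6 in KO and from 115.5 to 118 in wild type. Defining markers of Schwann cells were bright on all arrays, with a mean log2 intensity of 9.98 or more for each of the 7 measured. The list held 10 markers. Of those measured, Egr2 had 10.32, 10.14 and 10.22 on the KO arrays and 9.63, 9.93 and 9.64 on the wild-type arrays, without overlap. Its log2 fold change was 0.50 ± 0.13 (SE, unadjusted p = 0.0069, adjusted p = 0.850 in limma). Markers of other cells were bright too. Median log2 intensity was 11.07 for the 7 Schwann cell markers, 12.15 for 20 of skeletal muscle and 9.69 for 16 of adipocytes. Intensity ranks of members thus hold signal from any cells in the samples, and the source of a member's signal was not tested. The arrays differed in markers of other cells, given below beside the genes that moved with them.

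Brightness was read in 2 ways. The percentile of a gene is its place among all 22180 genes by mean log2 intensity over the 6 arrays, and because probe sets differ in how well they hybridise it orders signals and not transcript numbers. As a floor, the 95th percentile of 1394 odour and pheromone receptor genes was taken, a log2 intensity of 6.57, since nerve is not known to use these receptors. Of the 89 genes, 61 lay above this floor in both genotypes, or 68.5%, against 62.3% of all genes tested. The floor is not a detection test, and 28 genes lay above the 99th receptor percentile.

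The brightest member was Kcna1, which encodes a pore subunit of the Shaker family, with a log2 intensity of 12.08, 12.08 and 12.24 in KO nerves and 11.92, 12.38 and 11.80 in wild-type nerves. It lay in the 99.1th percentile of all genes. The KO values fell inside the spread of the wild-type values. Kcna2, its partner subunit beside the paranodes, had 11.32, 11.19 and 11.46 in KO nerves and 11.21, 11.69 and 11.05 in wild-type nerves, and here too the groups overlapped. The log2 fold change was 0.10 ± 0.17 (SE) for Kcna1 and 0.0088 ± 0.19 for Kcna2. These values are transcripts of whole nerve, and the bodies of its neurons lie outside it. Which cells held the transcripts was not tested, so they do not measure the channel protein beside the paranodes.

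Kcnk1, a K2P subunit that gives a weak leak current, had the second-brightest probe set. Its log2 intensity was 11.66, 11.51 and 11.57 in KO nerves and 11.13, 11.42 and 11.43 in wild-type nerves, so each KO value lay above each wild-type value. The log2 fold change was 0.25 ± 0.13 (SE) and did not pass the test (limma unadjusted p = 0.0958, adjusted p = 0.868). Together with Kcna2, in the 97.7th percentile, these were the 3 members above the 95th percentile. The next, Kcna4, lay in the 88.4th percentile.

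The other members in the upper part of the range came from several families. Kcna6, a further Shaker subunit, stood at a mean log2 intensity of 9.62 ± 0.15 in KO and 9.84 ± 0.32 in wild type (SD, n = 3 each). Kcnma1, the pore of the large-conductance calcium-activated (BK) channel, stood at 9.45 ± 0.39 in KO and 9.42 ± 0.56 in wild type. Kcnj10, an inward rectifier of glial cells known for taking up potassium, stood at 8.94 ± 0.36 in KO and 8.67 ± 0.42 in wild type. For all 3 genes the groups overlapped. Kcnk2, a K2P channel opened by membrane stretch, stood at 8.75 ± 0.17 in KO and 8.84 ± 0.18 in wild type, and Kcnj8, the pore of the ATP-sensitive channel of vessels, at 8.46 ± 0.25 in KO and 8.61 ± 0.18 in wild type. The non-coding Kcnq1ot1, an imprinted antisense transcript, stood at 8.92 ± 0.09 in KO and 9.05 ± 0.03 in wild type. Its 3 KO values lay below the wild-type values, with a log2 fold change of -0.13 ± 0.11 (SE) that did not pass the test (adjusted p = 0.905 in limma).

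**Figure D1:**
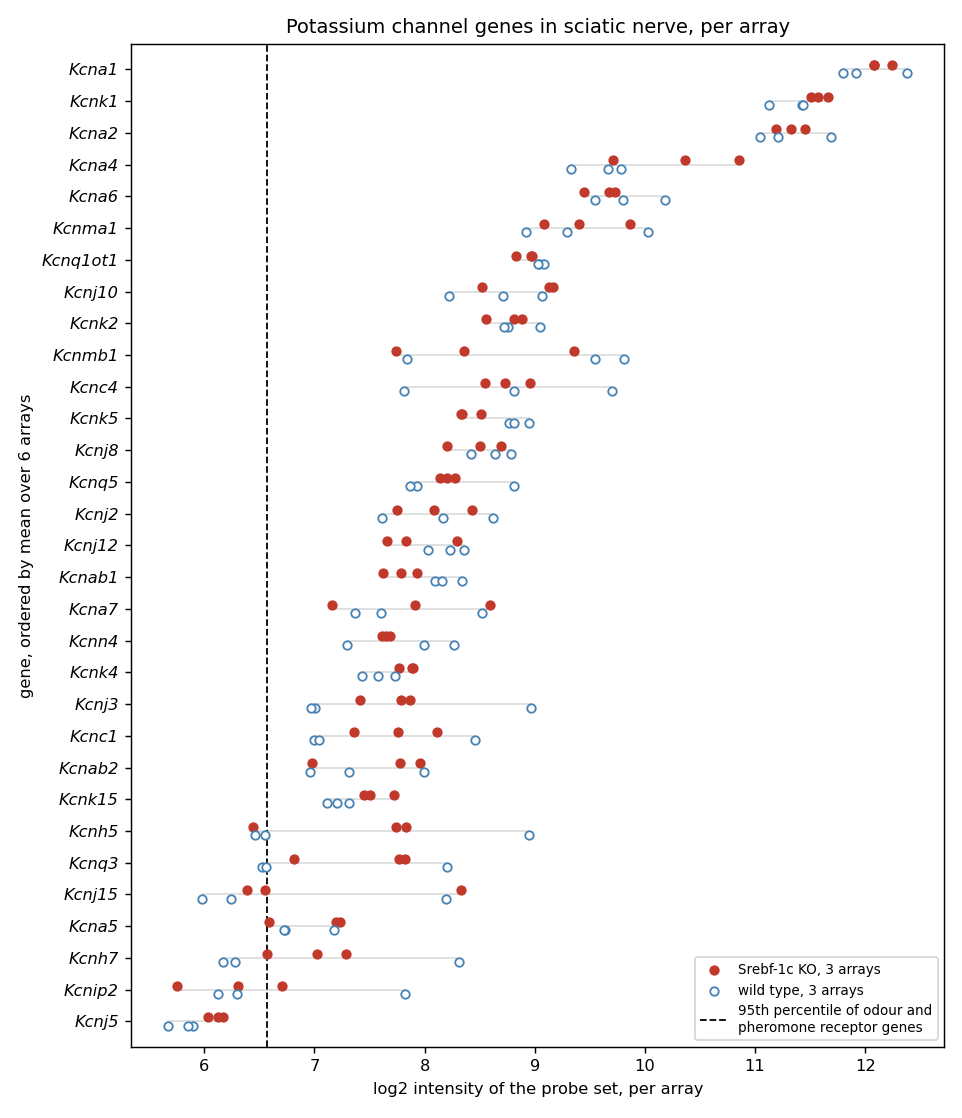
Log2 intensity per array (x axis) of the 31 potassium channel genes named by rule (rows, brightest at the top), with filled points for the 3 KO arrays and open points for the 3 wild-type arrays of each gene. Kcna1, Kcnk1 and Kcna2 stand apart at a mean above 11, and Kcnj5 lies left of the dashed floor at 6.57 on all 6 arrays.

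By family, 21 of 26 voltage-gated pore subunits lay above the floor, as did 7 of 8 calcium- and sodium-activated pores, 10 of 14 inward rectifiers and 10 of 13 K2P channels. Auxiliary subunits of voltage-gated channels were above it in 7 of 12 cases and BK beta subunits in 2 of 4. The modulatory subunits, which carry no current by themselves and combine with other voltage-gated subunits, were above it in 3 of 10 cases. The dimmest member was Kcnu1, the sperm-specific pore, in the 11.8th percentile, followed by Kcnj1, the inward rectifier of kidney, in the 13.8th.

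No member passed the test between KO and wild type at an adjusted p of 0.05 in limma, which called 0.00451% of all genes (Srebf1 itself). The smallest adjusted p among members was 0.850. With the unmoderated test per gene, 0 of all genes were called, members included. At an unadjusted p under 0.05 in limma there were 5 members, or 5.62%, against 5.83% of all genes. Of these, 3 were higher in KO, where the share over all genes was 2.34%, and 2 were lower, where it was 3.49%. The criterion of the study, an unadjusted p under 0.05 with at least 1.5-fold change, was applied here to the moderated p of limma. In this form it was met by 1 member, or 1.12%, against 1.19% of all genes. That member was higher in KO, as were 0.64% of all genes by that criterion. With the p of the unmoderated test per gene, 0 members and 0.622% of all genes met it. The KO and wild-type values did not overlap in 10 members, or 11.2%, against 12.3% of all genes. The share of members at each limit was thus near the background.

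Counts of members at an unadjusted p under 0.05 changed with single arrays. There were 15 without wild-type replicate 1, where 6.18% of all genes were at that limit, and 2 without wild-type replicate 2, where 5.9% were. There were 3 without KO replicate 1 and 3 without KO replicate 3, where the share of all genes was also lower, at 3.63% and 2.82%. Likewise 55 of 89 members had a higher mean in KO, against 43.1% of all genes, with a median log2 fold change of 0.042 over members and -0.032 over all genes. The count was 62 without wild-type replicate 1, 58 without KO replicate 1 and 48 without KO replicate 2. It was 42 without KO replicate 3, 34 without wild-type replicate 2 and 39 without wild-type replicate 3, fewer than were lower. Bringing the arrays to 1 median moved all log2 fold changes alike, with the median of all genes at -0.079, and 43 members then lay above 0.

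**Figure D2:**
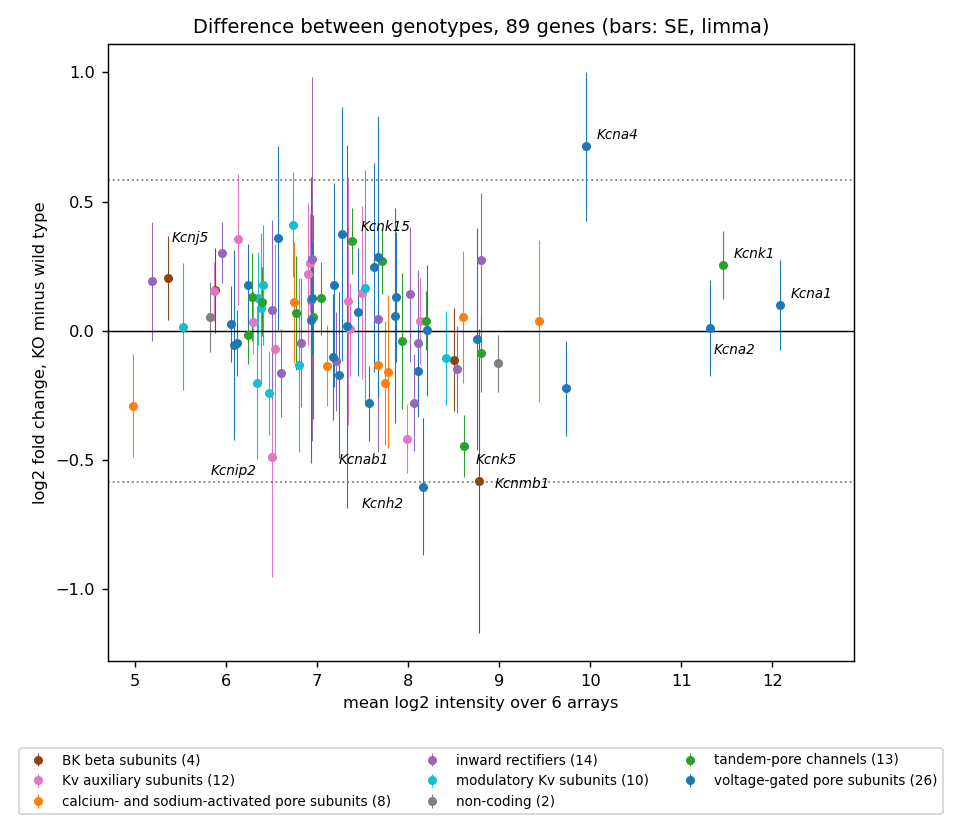
Log2 fold change of KO minus wild type (y axis, bars are standard errors from limma, 3 arrays per genotype) against mean log2 intensity over 6 arrays (x axis) for the 89 potassium channel genes, coloured by family with the number of genes in brackets. Dotted lines mark 1.5-fold change in either direction, and the bright genes Kcna1, Kcna2 and Kcnk1 lie between them while Kcna4 stands at 0.71.

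The lowest unadjusted p belonged to Kcnk5, a K2P channel opened by alkaline pH outside the cell. Its log2 intensity was 8.34, 8.51 and 8.33 in KO nerves and 8.76, 8.95 and 8.81 in wild-type nerves. All KO values lay below all wild-type values, with a log2 fold change of -0.45 ± 0.12 (SE) and an unadjusted p = 0.0072 in limma (adjusted p = 0.850). Kcnab1, a cytoplasmic beta subunit that binds Shaker channels and can speed their inactivation, showed the same order. It had 7.62, 7.93 and 7.78 in KO nerves and 8.10, 8.34 and 8.16 in wild-type nerves, with a log2 fold change of -0.42 ± 0.13 (SE) and an unadjusted p = 0.0165 in limma (adjusted p = 0.850). Over 19 other settings, which share arrays and are not independent, the log2 fold change of Kcnk5 stayed between -0.50 and -0.39 with an unadjusted p under 0.05 in all 19, and that of Kcnab1 between -0.49 and -0.34 with an unadjusted p under 0.05 in 18. Neither reached 1.5-fold, and neither passed the adjusted test in any of these settings, in several of which 0 of all genes passed.

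Because Srebf1 products bind DNA at sterol regulatory elements and at E-boxes, the RefSeq promoter windows of the members were searched for both, on both strands, from 250 bases before to 50 bases after each annotated start (build GRCm38.p6). Windows were found for 69 of the 89 members. The E-box CACGTG occurred in at least 1 window of 6 members, or 8.7%, against 8.09% of all genes with a window. Both Kcnk5 and Kcnab1 were among the 6. The others were Kcne4, Kcnh4, Kcnj2 and Kcnn4, none of them at an unadjusted p under 0.05 in limma. The remaining members at that limit, Kcna4, Kcnk15 and Kcnj5, each had a window without the motif. The windows of Kcnk5 and Kcnab1 are shown with the E-box in capitals, for Kcnk5 at chr14:20181733-20182032 on the minus strand and for Kcnab1, which has 3 annotated starts, at the 2 whose windows hold the motif, chr3:65108764-65109063 and chr3:65187853-65188152 on the plus strand.
Kcnk5: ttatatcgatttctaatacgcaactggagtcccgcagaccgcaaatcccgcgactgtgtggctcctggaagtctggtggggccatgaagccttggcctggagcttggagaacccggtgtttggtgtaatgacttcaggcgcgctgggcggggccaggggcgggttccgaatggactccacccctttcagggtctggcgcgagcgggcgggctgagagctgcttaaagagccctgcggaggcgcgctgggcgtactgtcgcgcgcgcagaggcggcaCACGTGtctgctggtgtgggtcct
Kcnab1, upstream start: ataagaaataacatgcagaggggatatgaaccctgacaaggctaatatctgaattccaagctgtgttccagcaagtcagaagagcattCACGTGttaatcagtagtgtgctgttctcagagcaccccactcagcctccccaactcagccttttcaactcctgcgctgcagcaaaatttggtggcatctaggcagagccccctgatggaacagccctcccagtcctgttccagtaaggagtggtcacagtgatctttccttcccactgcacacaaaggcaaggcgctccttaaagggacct
Kcnab1, downstream start: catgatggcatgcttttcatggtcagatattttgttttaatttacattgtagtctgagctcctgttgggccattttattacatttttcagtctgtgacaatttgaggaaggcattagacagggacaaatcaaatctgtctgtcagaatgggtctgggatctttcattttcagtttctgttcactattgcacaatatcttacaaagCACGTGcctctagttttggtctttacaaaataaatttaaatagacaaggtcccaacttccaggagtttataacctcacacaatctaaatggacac

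The sterol element TCACNCCAC, which can share its last bases with an E-box, occurred in 3 members, Kcnj8, Kcnn1 and Kcnf1, or 4.35%, against 1.44% of all genes with a window. Kcnj8 held 3 copies in a row, at positions -227, -216 and -205 from its start. The matches are shown in capitals with 20 bases on each side, on the minus strand at chr6:142571791-142571861 for Kcnj8, chr8:70863406-70863454 for Kcnn1 and chr12:17176931-17176979 for Kcnf1.
Kcnj8: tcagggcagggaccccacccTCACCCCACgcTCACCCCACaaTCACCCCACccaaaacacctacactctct
Kcnn1: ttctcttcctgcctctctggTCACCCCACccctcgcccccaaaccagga
Kcnf1: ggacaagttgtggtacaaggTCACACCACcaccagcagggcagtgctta

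None of these 3 genes passed the test. The log2 fold change was -0.15 ± 0.17 (SE) for Kcnj8, -0.13 ± 0.12 for the small-conductance calcium-activated channel gene Kcnn1 and -0.20 ± 0.30 for the modulatory subunit gene Kcnf1. The core of the RE1 element, which binds a repressor of neuronal genes, was also searched and occurred in 0 members, against 0.0592% of all genes with a window. A match is a run of letters and was not tested for binding, and the motifs were chosen with the values known.

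Kcna4, which encodes a rapidly inactivating Shaker subunit, was the 1 member to meet the criterion of the study. Its log2 intensity was 10.86, 9.71 and 10.36 in KO nerves and 9.67, 9.33 and 9.79 in wild-type nerves, so KO replicate 2 lay below wild-type replicate 3. The log2 fold change was 0.71 ± 0.29 (SE), 1.64-fold, with an unadjusted p = 0.0412 in limma (adjusted p = 0.850). It moved between 0.44 and 1.01 as single arrays were left out. A second, dimmer probe set of Kcna4 had a mean of 5.73 and a log2 fold change of 0.14, and with the probe sets averaged the gene no longer met the criterion. The unadjusted p was under 0.05 in 12 of 19 other settings. It was 0.118 in the unmoderated test, and between 0.0521 and 0.132 when KO replicate 1, KO replicate 3 or any 1 of the wild-type arrays was left out.

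The 2 remaining members at an unadjusted p under 0.05 were higher in KO. Kcnk15, a K2P subunit that gives no current by itself, had 7.50, 7.45 and 7.72 in KO nerves and 7.32, 7.20 and 7.11 in wild-type nerves, with a log2 fold change of 0.35 ± 0.13 (SE). Kcnj5, an inward rectifier opened by G proteins and best known from heart, had 6.17, 6.12 and 6.03 in KO nerves and 5.90, 5.67 and 5.85 in wild-type nerves, all below the floor, with a log2 fold change of 0.30 ± 0.12. Neither pair of groups overlapped, and both genes had an adjusted p of 0.850 in limma. The unadjusted p was under 0.05 in 13 of 18 other settings for Kcnk15 and in 6 of 17 for Kcnj5. Kcnk4, a stretch-sensitive K2P channel known at nodes of Ranvier in rodents, was also separated, with 7.88, 7.77 and 7.90 in KO nerves and 7.73, 7.43 and 7.58 in wild-type nerves (log2 fold change 0.27 ± 0.13, unadjusted p = 0.069 in limma). Of the 13 K2P channels, Kcnk1, Kcnk4 and Kcnk15 thus had every KO value above wild type and Kcnk5 had every KO value below it. Over all genes 4.08% had every KO value above and 8.21% every KO value below. The K2P channels were counted after their values were seen. Over all 89 members 5.62% had every KO value above and 5.62% every KO value below.

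The members varied more between arrays than genes in general, in a way that crossed the genotypes. The median range over the 6 arrays was 0.82 on the log2 scale for members and 0.54 for all genes. A range of at least 1, which is 2-fold, was found in 29 members, or 32.6%, against 13.5% of all genes. Among voltage-gated pore subunits it was 50% and among K2P channels 7.69%. Wild-type replicate 1 was the highest array for 39 of the 89 members, or 43.8%, against 22.3% of all genes, and for 20 of the 29 members of wide range, or 69%, against 33.1% of all genes of wide range.

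**Figure D3:**
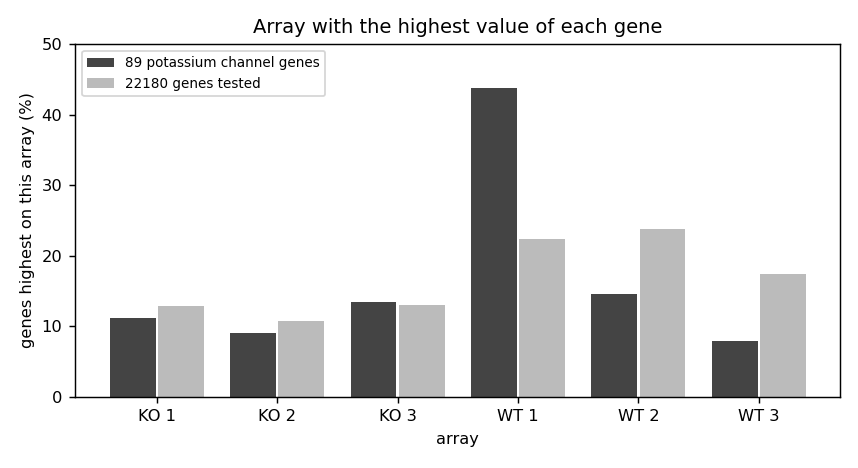
Share of genes (y axis, percent) whose highest value of the 6 lay on each array (x axis, 3 KO then 3 wild-type arrays), dark bars for the 89 potassium channel genes and light bars for all 22180 genes tested. Wild-type replicate 1 was highest for 43.8% of the channel genes and 22.3% of all genes.

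The widest range belonged to Kcnh5, a voltage-gated channel of the EAG family best known from brain. Its log2 intensity was 6.44, 7.83 and 7.74 in KO nerves and 8.95, 6.55 and 6.46 in wild-type nerves. Wild-type replicate 1 stood highest, KO replicates 2 and 3 followed, and the other 3 arrays lay just below the floor. Kcnh7, of the related ERG family, had 6.57, 7.03 and 7.28 in KO nerves and 8.31, 6.28 and 6.17 in wild-type nerves. Kcnj3, an inward rectifier that G proteins open in neurons and heart, had 7.41, 7.87 and 7.78 in KO nerves and 8.96, 7.00 and 6.97 in wild-type nerves. In all 3 genes wild-type replicate 1 was highest and KO replicates 2 and 3 came next, so the genotypes overlapped.

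Kcnip2, a calcium-binding auxiliary subunit of A-type channels, had 5.75, 6.31 and 6.71 in KO nerves and 7.82, 6.29 and 6.12 in wild-type nerves, and its mean lay below the floor. Kcnq3, a subunit of the M-current that steadies the resting potential of neurons, had 6.81, 7.77 and 7.82 in KO nerves and 8.20, 6.52 and 6.56 in wild-type nerves. Kcnab2, the beta subunit known to accompany Kcna1 and Kcna2 in axons, had 6.97, 7.78 and 7.96 in KO nerves and 8.00, 6.96 and 7.31 in wild-type nerves. In each, wild-type replicate 1 was highest and KO replicates 2 and 3 came next.

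The average of markers of axons and neurons followed the same order, while single markers did not all do so. Each of the 10 markers was centred on its own mean log2 intensity, and the average of these centred values, the score of an array, was -0.36, 0.25 and 0.22 in KO and 0.65, -0.24 and -0.53 in wild type. Of the 10 markers, 9 lay above the floor and 7 were highest on wild-type replicate 1. Snap25, a synaptic vesicle fusion protein gene, had 9.74, 11.05 and 11.08 in KO nerves and 11.63, 9.80 and 9.47 in wild-type nerves. Rbfox3, a nuclear marker of neurons, had 7.79, 8.34 and 8.65 in KO nerves and 8.92, 7.91 and 7.64 in wild-type nerves. The neurofilament gene Nefh, the peripheral neuron gene Prph and Uchl1 were not highest on wild-type replicate 1. Prph had 7.47, 7.21 and 7.11 in KO nerves and 7.46, 7.79 and 7.34 in wild-type nerves. Uchl1 had 9.60, 9.70 and 9.76 in KO nerves and 9.59, 9.71 and 9.24 in wild-type nerves. Tubb3 was highest on wild-type replicate 1, but wild-type replicate 2 at 7.35 lay above KO replicate 3 at 7.22.

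The 3 arrays with a score above 0 also held the 3 highest values in 26 of the 89 members, or 29.2%, against 5.32% of all genes, and in 17 of the 29 members of wide range, or 58.6%, against 15.8% of all genes of wide range. The arrays were ordered here by values seen in these data, so these counts are a description. Whether the members came from the same cells as the markers was not tested, and in whole tissue fewer cells of a type and less RNA per cell cannot be told apart. Among the 17 were also Kcnd2, Kcnip4, Kcnb2, Kcnc2, Kcnh1, Kcnh3, Kcnj6, Kcnk9, Kcnv1, Kcnab3 and Kcnt2, picked after their values were seen. Of the 17, Kcnb2, Kcnc2, Kcnj6, Kcnab3 and Kcnip2 did not lie above the floor in both genotypes.

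The bright Shaker genes did not follow that order, nor 1 order of their own. Kcna1, Kcna2 and Kcna6 were each highest on wild-type replicate 2, where the axon and neuron score was -0.24 and the Schwann cell score, 0.21, was the highest of the 6. Schwann cell scores were 0.092, -0.066 and 0.088 in KO and -0.14, 0.21 and -0.18 in wild type. Kcna1 and Kcna2 were lowest on wild-type replicate 3, where that score was lowest, but Kcna6 was lowest on KO replicate 2, and Kcna4 was highest on KO replicate 1 and lowest on wild-type replicate 2. The 3 arrays with a Schwann cell score above 0 held the 3 highest values of 2 members, or 2.25%, against 6.36% of all genes. These were Kcna2 and the dim Kcnj1. The 2 highest values of Kcna1 lay on wild-type replicate 2 and KO replicate 3. Kcna1 missed that order narrowly, with 12.077 on KO replicate 2 and 12.0757 on KO replicate 1. Kcnj10 had 8.52, 9.13 and 9.16 in KO nerves and 9.07, 8.71 and 8.22 in wild-type nerves, with its 3 highest values on the arrays with the 3 highest axon and neuron scores.

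**Figure D4:**
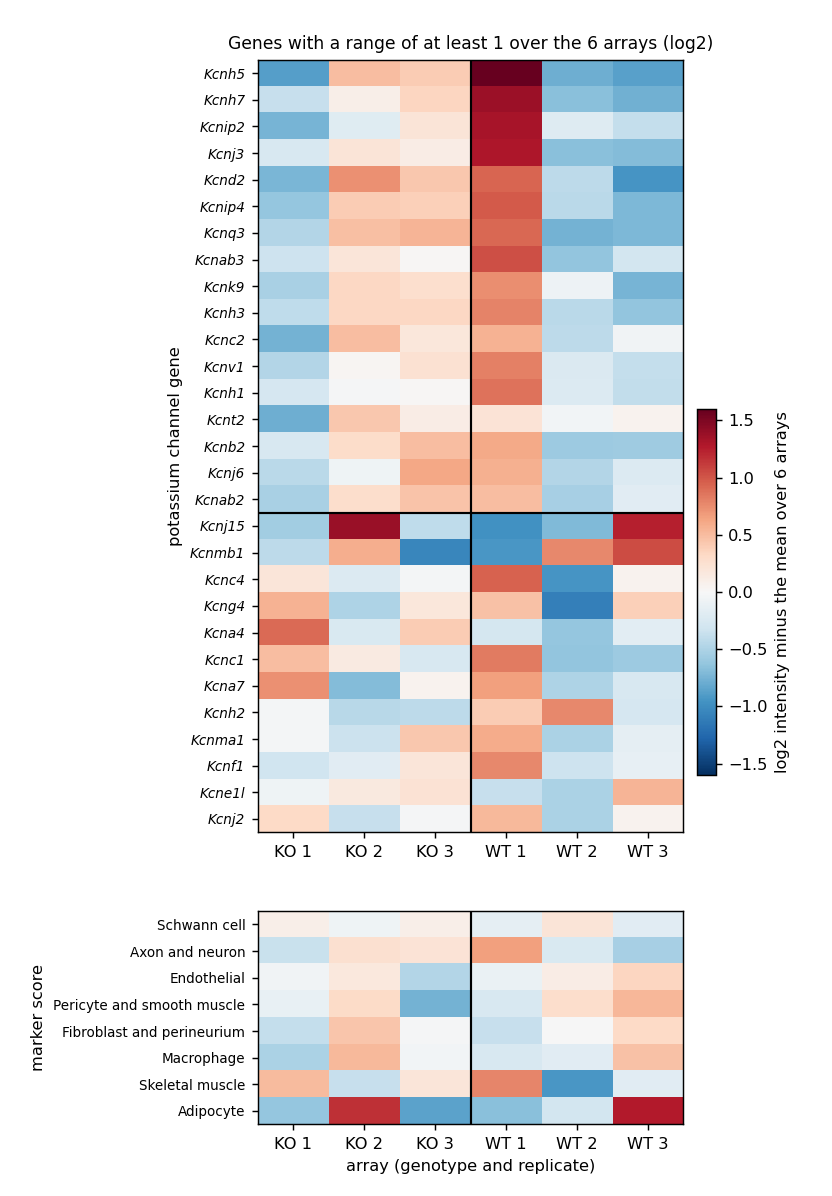
Centred log2 intensity (colour, each gene's mean over 6 arrays set to 0) for the 29 potassium channel genes with a range of at least 1 (rows of the upper panel) on the 3 KO and 3 wild-type arrays (columns), with scores of 8 marker lists in the lower panel. The 17 genes above the horizontal line are higher on wild-type replicate 1 and KO replicates 2 and 3 than on the other arrays, as is the axon and neuron score.

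The 2 highest arrays of the adipocyte score were the 2 highest in 8 members, or 8.99%, against 9.55% of all genes, and in 1 of the 29 of wide range, or 3.45%, against 20.9%. The order of pericyte and smooth muscle markers was found in 4 members, or 4.49%, against 10% of all genes, and in 1 of wide range, or 3.45%, against 13.7%. Those of wide range were Kcnj15 and Kcnmb1. Kcnj15, an inward rectifier, had 6.38, 8.33 and 6.55 in KO nerves and 5.98, 6.25 and 8.19 in wild-type nerves, with KO replicate 2 and wild-type replicate 3 far above the rest. The adipocyte score over 16 genes was -0.62, 1.16 and -0.86 in KO and -0.66, -0.29 and 1.27 in wild type, with the same 2 arrays on top. Kcnmb1, the BK beta subunit of smooth muscle, had 8.36, 9.36 and 7.74 in KO nerves and 7.84, 9.54 and 9.81 in wild-type nerves. Markers of pericytes and smooth muscle scored -0.11, 0.31 and -0.76 in KO and -0.25, 0.29 and 0.53 in wild type. KO replicate 2 and wild-type replicates 2 and 3 were thus the 3 highest for both, as they were for the endothelial score. Macrophage and fibroblast scores were also highest on KO replicate 2 and wild-type replicate 3, and the part of any of these cells in the values of Kcnj15 and Kcnmb1 was not tested.

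Kcna7, a Shaker gene known from skeletal muscle, had 8.59, 7.16 and 7.91 in KO nerves and 8.52, 7.36 and 7.61 in wild-type nerves. Markers of skeletal muscle, 20 genes, scored 0.50, -0.37 and 0.19 in KO and 0.78, -0.93 and -0.18 in wild type. The 3 arrays above 0 held the 3 highest values of 11 members, or 12.4%, against 6.75% of all genes, but of 2 of the 29 members of wide range, or 6.9%, against 9.65% of all genes of wide range. Besides Kcna7 these included Kcnma1 and, chosen after its values were seen, Kcnj11, the pore of the ATP-sensitive channel of muscle. Kcnc4, a fast voltage-gated channel of nerve and muscle, was highest on wild-type replicate 1 at 9.70 and lowest on wild-type replicate 2 at 7.81, the arrays with the highest and lowest muscle score. Its KO values were 8.95, 8.55 and 8.73.

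Without wild-type replicate 1, which held the highest axon and neuron score and the highest muscle score, 11 members were higher and 4 lower in KO at an unadjusted p under 0.05 in limma, and 7 met the criterion of the study, against 6.18% and 1.96% of all genes in that fit. The 6 that met it upward were Kcnj3 at a log2 fold change of 0.70 ± 0.17 (SE), Kcnip1 at 0.63 ± 0.16, Kcnh7 at 0.74 ± 0.22, Kcnb2 at 0.76 ± 0.23, Kcnc1 at 0.72 ± 0.23 and Kcnq3 at 0.93 ± 0.32. With all arrays the same genes ranged from 0.042 for Kcnh7 to 0.37 for Kcnq3. In all 6 the array left out held the highest value of the gene. Both remaining wild-type values lay below the floor of 6.57 for Kcnip1, Kcnb2, Kcnh7 and Kcnq3. Kcnmb1 met it downward at -1.19 ± 0.45. No member had an adjusted p below 0.759 in that fit.

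The other channels named for their known place in nerve, vessels or muscle had overlapping groups. Kcnc1, a fast voltage-gated channel of neurons, had 8.11, 7.76 and 7.36 in KO nerves and 8.45, 7.00 and 7.04 in wild-type nerves. Kcnq5, a further M-current subunit, had 8.27, 8.14 and 8.20 in KO nerves and 8.81, 7.93 and 7.87 in wild-type nerves, so that wild-type replicate 1 again stood apart. The inward rectifiers Kcnj2 and Kcnj12 had log2 fold changes of -0.05 ± 0.28 (SE) and -0.28 ± 0.19. Those of Kcnn4, a calcium-activated channel of blood and endothelial cells, and of Kcna5, a Shaker channel of vessels and heart, were -0.20 ± 0.24 and 0.13 ± 0.22.

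In 7 members a second probe set was measured, and the sets did not always move alike. For Kcna6 the brighter set gave a log2 fold change of -0.22 and the dimmer one, with a mean of 7.37, gave 0.51 (unadjusted p = 0.0334, adjusted p = 0.839 in limma over all probe sets). The dimmer set of Kcnma1 had a mean of 5.19 against 9.43 for the brighter, and the log2 fold changes were 0.31 and 0.036. For Kcnmb4, the BK beta subunit of neurons, they were -0.14 for the dimmer and -0.11 for the brighter set.

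Genes outside the family that work with these channels gave no call either. Of 21 partners, such as accessory subunits, scaffolds and the adhesion proteins that hold channels in place, 10 were higher and 11 lower in KO, with 0 past an adjusted p of 0.05 and 0 at an unadjusted p under 0.05. Their median log2 fold change was -0.0093, and 43.1% of all genes were higher in KO. Adam22, known to recruit scaffolds beside the paranodes, had 8.23, 8.25 and 8.37 in KO nerves and 8.04, 8.11 and 7.73 in wild-type nerves, without overlap, and a log2 fold change of 0.32 ± 0.14 (SE). The ubiquitin ligase gene Nedd4l stood at 0.20 ± 0.14 and the channel regulator gene Kcnrg at -0.21 ± 0.19. Amigo1, an accessory protein gene of voltage-gated channels, stood at -0.13 ± 0.11. Kcnrg did not lie above the floor in both genotypes. Abcc9, which pairs with the Kcnj8 product in vessels, had 10.65, 10.37 and 10.12 in KO nerves and 11.13, 9.89 and 10.69 in wild-type nerves.

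Of 17 measured genes of potassium pumps and cotransporters, 8 were higher and 9 lower in KO, again with 0 at an adjusted and 0 at an unadjusted p under 0.05 in limma. Atp1b1, a beta subunit of the sodium-potassium pump, had 11.45, 10.97 and 11.38 in KO nerves and 11.71, 9.35 and 9.45 in wild-type nerves. Wild-type replicates 2 and 3 lay more than 1 log2 unit below the other 4 arrays. The log2 fold change was 1.10 ± 0.59 (SE, adjusted p = 0.870 in limma), and without wild-type replicate 1 it was 1.87 ± 0.18 (adjusted p = 0.309). Fxyd5, a regulator of the pump, stood at -0.24 ± 0.17, the further beta subunit gene Atp1b3 at 0.18 ± 0.15 and the cotransporter gene Slc12a1 at 0.17 ± 0.14. Among 14 measured sodium and pacemaker channel genes, 11 were higher and 3 lower in KO, where 43.1% of all genes were higher. Their median log2 fold change was 0.18, with 0 at an unadjusted p under 0.05 in limma. Of the 14, 8 lay above the floor in both genotypes. Scn7a, an atypical sodium channel of glia and other non-neuronal cells, stood at 0.25 ± 0.17 and in the 99.6th percentile. Scn2a stood at 0.43 ± 0.33, Scn3a at -0.32 ± 0.22 and the pacemaker channel gene Hcn3 at 0.21 ± 0.16. Scn3a, Hcn3 and Slc12a1 did not lie above the floor in both genotypes.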

How the data were processed

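Total RNA of 6 nerve samples went onto 1 Affymetrix array each, per the labels' protocols. The authors deposited 1 linear intensity per probe set and array, made with RMA (background correction, normalization and summary of probes) in TAC and Partek, per the series' design text. Build mm8 is named in the submitters' processing notes; tool versions: not given in the sources used here. The linear scale was read from the values, which run from 3.67 to 23738. At most 0.117% of values were identical between any pair of arrays.

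Log2 was taken with no pseudocount and no filter on dim genes. Of 41077 probe sets, 23521 had 1 symbol in the platform annotation, and those with several or none were not used. The brightest set by mean over the 6 arrays stood for a gene, which left 22180 genes. All 89 members matched RefSeq (GRCm38.p6) by Entrez identifier. Limma 3.58.1 in R 4.3.3 (lmFit, eBayes) was fitted to all genes as KO minus wild type, two-sided, with Benjamini-Hochberg adjustment, and was tested on simulated data. Named were the 12 brightest members, members at an unadjusted p under 0.05, the 6 of widest range, 21 channels known from nerve, vessels and muscle (20 measured), Srebf1 and the 4 smallest p of each partner list; others are named as chosen afterwards or where a count called for it. Members, lists and tests were chosen with earlier results of these data known. Promoter windows came from RefSeq. Alternatives were a replicate block, the unmoderated test, an intensity trend with robust prior, array weights, dim-gene filters, 2 further scalings, other handling of probe sets, marker scores as covariates and leaving out each array. Python 3.11.15 with pandas 2.3.3, numpy 2.4.6 and matplotlib 3.10.9 served for joins and plots.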

Additional observations from a re-analysis of the deposited data

How the results depend on the processing

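The count of members at an adjusted p of 0.05 was 0 under all 20 alternatives, including a limit of 0.10. Of all genes, 0 were called with the replicate block, the unmoderated test, arrays at 1 median, every probe set or marker scores as covariates. The same held when any array other than KO replicate 2 was left out. In those fits a count of 0 members says nothing particular about the members. The count at an unadjusted p under 0.05 was 5 and ran from 2 to 15 with single arrays left out. The share of all genes in those fits ran from 2.82% to 7.19%. The count was 3 without the dimmest 50% of genes, where 39 members were tested and the share of all genes was 6.05%. Under the other settings on all arrays it was 4 to 6, against 5.57% to 7.59% of all genes. The count meeting the criterion of the study was 1. With single arrays left out it ran from 0 to 7, and the share of all genes from 1.04% to 2.49%. It was 2 with the replicate block (1.3% of all genes), arrays at 1 median (1.31%) and the adipocyte score as a covariate (1.38%). It was also 2 with the axon and neuron score (1.36%), an alternative chosen after seeing the data. It was 0 with the unmoderated test (0.622%), with the mean of probe sets (1.17%) and at a fold limit of 2. The count above the floor was 61, from 54 to 63 with single arrays left out. It was 28 above the 99th receptor percentile and 39 above the median of all genes. The share of all genes is not given for these alternatives. Of the 31 named members, 13 kept their sign under every alternative in which they were tested, and 18 changed it at least once. The 5 at an unadjusted p under 0.05 were among the 13. They were picked for differences large against their error on these same arrays, so their kept sign adds no support. The cause of the shifts in counts and signs was not tested.

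The labels number samples 1 to 3 in each genotype without saying what a number stands for. Deviations from the group means of same-numbered samples correlated across genes at 0.12, 0.012 and -0.23. Those of different-numbered samples correlated at values from -0.26 to 0.28. These correlations cannot decide whether the numbers pair the samples, and the main test did not pair them. With the replicate block the count at an unadjusted p under 0.05 was 4, against 5.86% of all genes. Intensities here have no detection calls, so dim members cannot be called absent.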
